A study of Mus musculus with 23 samples.

Results

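The 35 genes described here are Ppara and the genes of fatty acid handling and oxidation that its product is known to control in mouse liver, together with enzymes of the same pathways. They were chosen by symbol for these roles, and all 35 were found among the 54838 genes of the count table. By role they comprise the regulator Ppara and the hormone gene Fgf21, 3 genes of uptake, binding and activation, 2 of the carnitine shuttle, 11 of mitochondrial beta-oxidation, 3 of electron transfer, 4 of peroxisomal beta-oxidation, 3 of omega-hydroxylation, 1 ketogenic gene, 4 thioesterases and 2 further targets. Of these, 34 passed the filter on low counts in each of the main fits, and Fgf21 did not. In an alternative fit of EPDR1 and the batch 2 vehicle alone, 33 of these 34 passed.

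Livers of C57BL/6J mice were profiled by bulk RNA-seq in 23 libraries. In batch 2, mice received recombinant FSTL3 (follistatin-like 3, a secreted protein that binds activins), EPDR1 (ependymin related protein 1) or FCN2 (ficolin 2, a lectin of the complement system), with 4 libraries each, beside 4 libraries of the batch 2 vehicle. In batch 1, mice received LBP (lipopolysaccharide binding protein, 3 libraries, replicates 2 to 4) or vehicle (4 libraries). Mice got 3 injections of protein, 1 day apart, at a dose of 1 µg for each g they weighed. Sex and age are not given in the sources used here, and nothing in the labels says that libraries of a group came from separate animals, so p-values measure the spread between these libraries. Library totals ran from 773499 to 21892416 counts, with a median of 3712802, and the FSTL3 libraries held 9298871 to 10930800.

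PPAR-alpha is a nuclear receptor that fatty acids bind. In liver it is best known for switching on fatty acid uptake, oxidation and ketogenesis during fasting, and in rodents also peroxisomal and microsomal oxidation. Long-chain fatty acids are activated to acyl-CoA, carried into mitochondria on carnitine and shortened by cycles of dehydrogenation, hydration, oxidation and thiolysis, with electrons passed on by the electron transfer flavoprotein. Peroxisomes shorten very long chains, the Cyp4a enzymes hydroxylate the far end of the chain, and thioesterases release free acids from CoA. Ppara transcription is also known to follow a daily rhythm in mouse liver.

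LBP replicate 2 stood apart from the other libraries. Its albumin share was 0.211%, where the other 22 libraries had 5.26% to 8.36%, and its members scattered in both directions. In CPM, the count relative to the library size as scaled by the trimmed mean of M values, it held 2983 of Etfb, against 58.6 and 46.5 CPM in the other LBP libraries. It held 4.53 CPM of the peroxisomal gene Ehhadh, against 433.5 and 411.7 CPM in the other LBP libraries. Markers of pancreatic acinar cells, summed over 8 genes, stood at 1322 CPM in it, at 0.325 and 561.8 CPM in LBP replicates 3 and 4, and at 0.650 to 69.7 CPM in the batch 1 vehicle; their part in the LBP results was not tested. Its sums of Kupffer cell markers (1263 CPM) and adipocyte markers (157.5 CPM) were the highest of the 23 libraries. LBP results are therefore given with and without this library. The 12 hepatocyte markers summed to 94840 to 135000 CPM over the libraries, LBP replicate 2 included (107500 CPM). Its albumin gene Alb, however, had 3493 CPM, against 53990 to 90820 CPM in the libraries of the other groups, so that this library went against its tissue label in that defining marker. In bulk tissue, fewer cells of a type and less RNA per cell cannot be told apart.

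**Figure D1:**
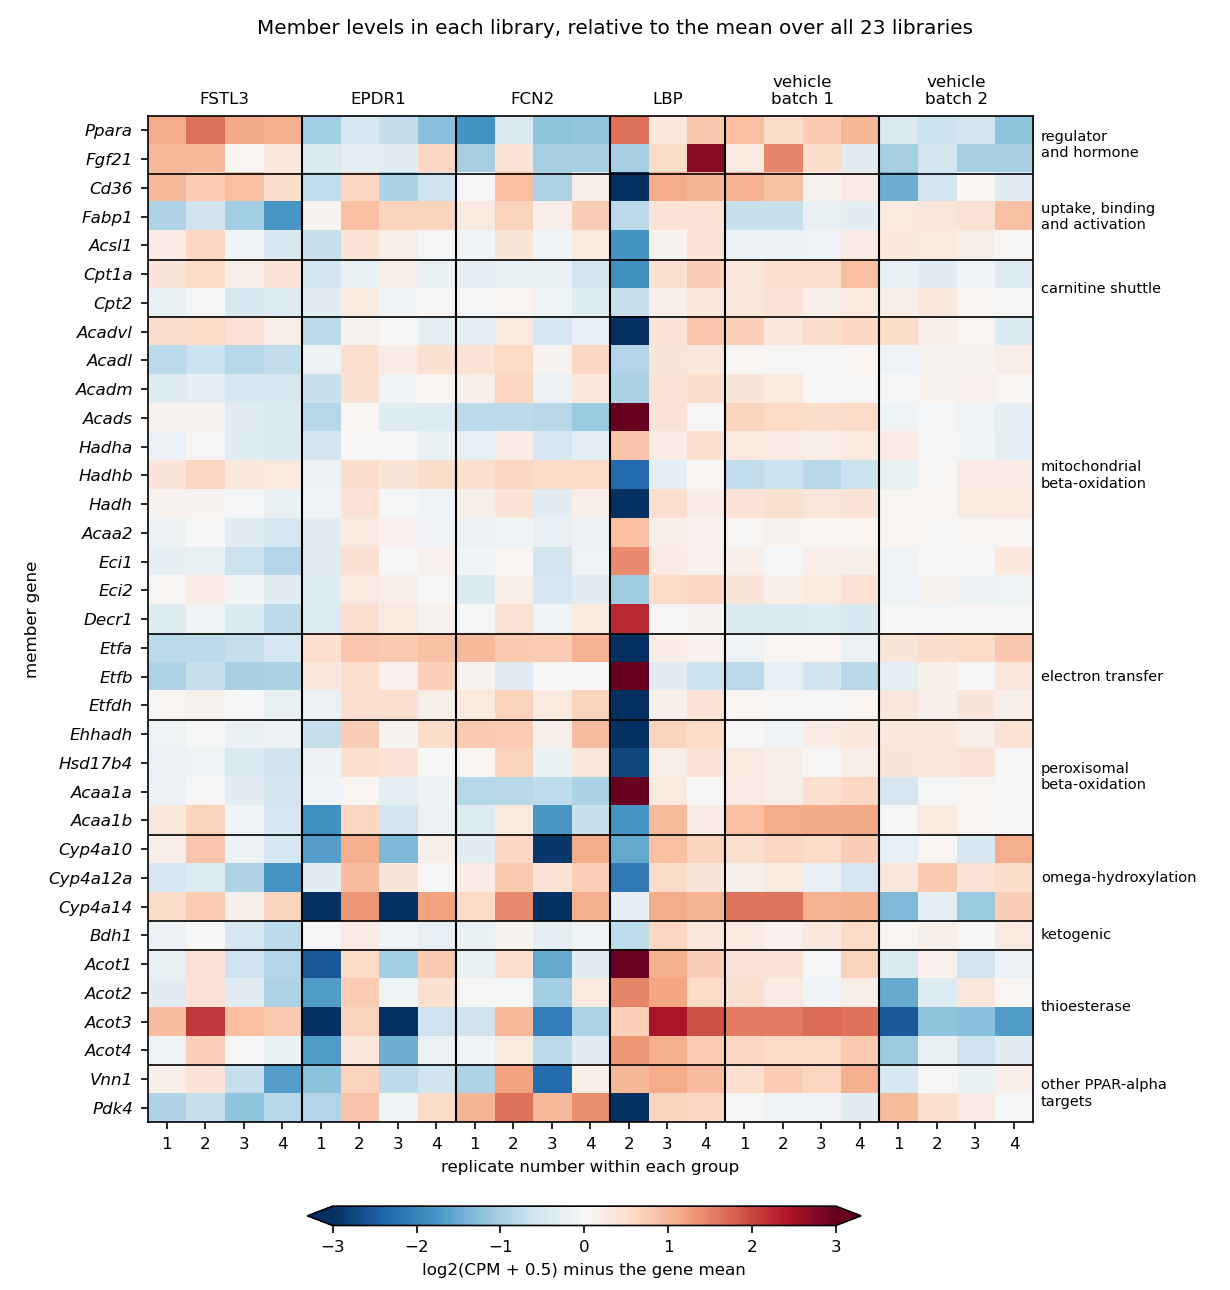
Level of the 35 members (rows, grouped by role) in each of the 23 libraries (columns, grouped by treatment), as log2(CPM + 0.5) minus the mean of the gene over all 23 libraries, with colours ending at 3 in either direction. Ppara and Acot3 are red in the FSTL3 and batch 1 libraries, while LBP replicate 2 is dark red for Etfb and dark blue for Ehhadh.

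Levels compared between genes are given per kilobase of exon. In the batch 2 vehicle the fatty acid binding protein gene Fabp1 stood far above the rest, at 12590 ± 2534 CPM per kb (SD, n = 4). The mitochondrial thiolase gene Acaa2 followed with 544.2 ± 4.58, and the flavoprotein subunit gene Etfa with 240.6 ± 31.98 CPM per kb. The lowest tested member was the thioesterase gene Acot3, at 0.550 ± 0.248 CPM per kb. Summed over the 35 members, the genes took 1.11% ± 0.261 of all counts in the FSTL3 libraries (SD, n = 4), 1.45% ± 0.342 in EPDR1, 1.35% ± 0.262 in FCN2 and 1.48% ± 0.148 in the batch 2 vehicle. In batch 1 they took 1.47% ± 0.532 in LBP (n = 3) and 1.44% ± 0.0429 in the vehicle (n = 4). These sums rest heavily on Fabp1, with a mean of 2420 CPM in FSTL3 and 6961 CPM in the batch 2 vehicle. The next member, Acsl1, had 1340 and 1401 CPM there. A sum without Fabp1 was not made.

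After FSTL3, the gene of the receptor was higher than in the batch 2 vehicle while most called genes of the oxidation machinery were lower. Ppara rose, together with the fatty acid transporter Cd36, the carnitine palmitoyltransferase Cpt1a and the peroxisomal thioesterase Acot3. Fabp1, Etfa, the kinase gene Pdk4 and the omega-hydroxylase Cyp4a12a fell the most. Called means an adjusted p under 0.05 in edgeR's quasi-likelihood test with Benjamini-Hochberg adjustment over all genes tested. Of the 34 members tested, 18 were called, 4 higher and 14 lower, whereas 56.9% of all 11553 genes were called, 28.4% higher and 28.5% lower. The share of members called was thus near that of all genes. The members' median log2 fold change was -0.23, against -0.01 over all genes tested. In a joint fit of all 23 libraries, LBP replicate 2 included, 6 members were called. The common dispersion, edgeR's estimate of spread shared by all genes, was 0.0774 in that fit, against 0.0299 in the fit of batch 2. The share of all genes called in the joint fit is not given here.

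Ppara (ENSMUSG00000022383, GRCm38 chromosome 15, 85734983 to 85802819, plus strand) encodes PPAR-alpha itself. It had 200.3, 290.3, 203.4 and 191.8 CPM in FSTL3 livers, against 68.2, 58.4, 61.9 and 39.2 CPM in batch 2 vehicle livers. The groups did not overlap, and FSTL3 replicate 2 lay above the other FSTL3 libraries. The log2 fold change was 1.89 ± 0.24 (SE; edgeR adjusted p = 3.28e-06). Fgf21, a hormone gene known as a PPAR-alpha target in fasting liver, was too low to test. It had 16, 17, 6 and 9 counts in FSTL3 libraries, against 0, 4, 0 and 0 counts in batch 2 vehicle libraries, which were mostly shallower.

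Genes of uptake and activation moved apart. Cd36, which takes up long-chain fatty acids, had 107.8, 93.4, 102.9 and 79.4 CPM in FSTL3 livers, against 19.4, 36.4, 56.5 and 43.7 CPM in batch 2 vehicle livers. All 4 FSTL3 values lay above the vehicle values (log2 fold change 1.26 ± 0.41, edgeR adjusted p = 0.0196). Without batch 2 vehicle replicate 1, its lowest library, the call was lost (1.02, edgeR adjusted p = 0.0572). Fabp1, which carries fatty acids in the hepatocyte cytosol, had 2607, 3220, 2395 and 1460 CPM in FSTL3 livers, against 6000, 6203, 6612 and 9028 CPM in batch 2 vehicle livers. Its groups did not overlap (-1.59 ± 0.22, edgeR adjusted p = 4.04e-06). Acsl1, the main hepatic acyl-CoA synthetase gene, did not pass (-0.13 ± 0.21).

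The promoters of 28 members were matched in RefSeq tables of the GRCm38.p6 build, from 250 bases before the start of transcription to 50 after it. Acaa2, Decr1, Hsd17b4, Cyp4a10, Cyp4a12a, Cyp4a14 and Vnn1 were not matched. PPAR-alpha binds with RXR to a direct repeat of a short element with 1 base between, called DR1. The letters AGGNCANAGGNCA, on either strand, were present in 1 of the 28 members, Fabp1, and in 0.451% of 27025 genes. The single element AGGTCA, which overlaps the DR1, was present in 7 of the 28 (Acadm, Acadvl, Acot3, Acot4, Cd36, Cpt1a and Fabp1) and in 18.1% of genes. The E-box CACGTG, which clock factors bind, was present in Acot4 and Fgf21 and in 8.09% of genes. The D-box TTANGTAA was in 0 of the 28 and in 2.72% of genes. Shown are the 250 bases before the start of 3 members that differed in direction or held more than 1 kind of motif, 5′ to 3′ on the plus strand. Capitals mark these motifs, at chr6:71199629-71199878 for Fabp1, chr19:3323051-3323300 for Cpt1a and chr12:84038129-84038378 for Acot4. In Fabp1 the DR1 begins 67 bases before the start and a further AGGTCA 9 bases before it, all on the minus strand. Cpt1a has an AGGTCA 94 bases before the start. Acot4 has an E-box 66 bases and an AGGTCA 13 bases before it.
Fabp1: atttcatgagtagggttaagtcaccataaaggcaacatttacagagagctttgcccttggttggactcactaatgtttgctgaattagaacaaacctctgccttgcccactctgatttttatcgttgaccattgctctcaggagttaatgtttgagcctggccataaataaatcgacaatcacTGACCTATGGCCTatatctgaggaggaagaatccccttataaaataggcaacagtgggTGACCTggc
Cpt1a: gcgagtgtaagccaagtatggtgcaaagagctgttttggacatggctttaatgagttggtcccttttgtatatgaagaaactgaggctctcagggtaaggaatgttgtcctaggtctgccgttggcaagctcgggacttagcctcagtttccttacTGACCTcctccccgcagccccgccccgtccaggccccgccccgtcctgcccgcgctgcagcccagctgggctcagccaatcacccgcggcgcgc
Acot4: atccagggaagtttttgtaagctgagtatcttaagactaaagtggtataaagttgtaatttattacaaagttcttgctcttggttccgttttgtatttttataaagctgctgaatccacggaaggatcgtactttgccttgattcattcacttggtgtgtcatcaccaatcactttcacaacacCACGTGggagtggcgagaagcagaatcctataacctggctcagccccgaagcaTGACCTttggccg

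The carnitine shuttle split in the same way. Cpt1a, the rate-controlling outer membrane enzyme and the gene whose promoter is shown above, had 446.5, 522.0, 404.3 and 458.6 CPM in FSTL3 livers, against 300.3, 278.5, 330.1 and 267.2 CPM in batch 2 vehicle livers. It rose by 0.57 ± 0.14 on the log2 scale (edgeR adjusted p = 0.00163). Cpt2, which returns the acyl group to CoA inside the mitochondrion, fell, with 104.1, 117.3, 87.9 and 92.2 CPM in FSTL3 livers, against 138.5, 149.4, 125.8 and 121.1 CPM in batch 2 vehicle livers (-0.48 ± 0.14, edgeR adjusted p = 0.00431).

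Within mitochondrial beta-oxidation, 5 of 11 genes fell after FSTL3 and 0 rose, so 45.5% were called where 56.9% of all genes were. They were the long-chain and medium-chain acyl-CoA dehydrogenase genes Acadl and Acadm, the thiolase gene Acaa2, the isomerase gene Eci1 and the dienoyl-CoA reductase gene Decr1. Acadl had 141.2, 155.6, 135.2 and 147.9 CPM in FSTL3 livers, against 227.1, 262.9, 257.0 and 278.3 CPM in batch 2 vehicle livers (-0.89 ± 0.14, edgeR adjusted p = 1.92e-05). The groups were well apart. Acadm (-0.54), Acaa2 (-0.36), Eci1 (-0.60) and Decr1 (-0.47) had smaller differences. The very-long-chain dehydrogenase gene Acadvl (0.23), the short-chain one Acads (-0.06), both subunits of the trifunctional protein, Hadha (-0.28) and Hadhb (0.28), as well as Hadh (-0.24) and Eci2 (-0.02) did not pass. Calls of smaller size rested on single libraries: Acaa2 was lost without FSTL3 replicate 3 or 4 or without batch 2 vehicle replicate 2, 3 or 4 (-0.33 to -0.28), Decr1 without FSTL3 replicate 3 or 4 or vehicle replicate 3 (-0.42 to -0.36), and Acadm without FSTL3 replicate 3 (-0.47, edgeR adjusted p = 0.0570).

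The 3 electron transfer genes, whose products hand electrons from the acyl-CoA dehydrogenases to ubiquinone, fell together. Etfa had 168.3, 172.2, 184.1 and 207.7 CPM in FSTL3 livers, against 380.0, 424.1, 441.4 and 520.5 CPM in batch 2 vehicle livers. No FSTL3 library came near the vehicle range (-1.34 ± 0.13, edgeR adjusted p = 2.12e-08). Etfb had 38.6, 45.3, 36.8 and 37.8 CPM in FSTL3 livers, against 59.8, 83.2, 71.8 and 92.7 CPM in batch 2 vehicle livers (-1.03 ± 0.15, edgeR adjusted p = 5.16e-06). Etfdh, the ubiquinone oxidoreductase gene, was nearer the threshold (-0.35 ± 0.14, edgeR adjusted p = 0.0439). Its call was lost when any library of the comparison other than FSTL3 replicate 2 was left out (-0.37 to -0.28).

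Outside the mitochondrion, members with roles in 1 pathway did not move as a block. In peroxisomal beta-oxidation Hsd17b4, the multifunctional enzyme gene, fell (-0.68 ± 0.17, edgeR adjusted p = 0.00191), whereas Ehhadh (-0.49), Acaa1a (-0.21) and Acaa1b (-0.01) did not pass. Among the omega-hydroxylases, Cyp4a12a, known as a male-biased gene in mouse liver, had 154.9, 167.4, 117.9 and 64.3 CPM in FSTL3 livers, against 277.2, 382.1, 294.0 and 324.8 CPM in batch 2 vehicle livers (-1.41 ± 0.28, edgeR adjusted p = 0.000538). Cyp4a10 (-0.14 ± 0.75) and Cyp4a14 (0.73 ± 1.18) had errors too wide for a call.

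Acot3, a peroxisomal long-chain thioesterase gene, had 13.1, 30.9, 12.9 and 11.8 CPM in FSTL3 livers, against 0.747, 2.59, 2.49 and 1.74 CPM in batch 2 vehicle livers (2.96 ± 0.80, edgeR adjusted p = 0.00640). The groups were far apart although its counts were low in the vehicle. The cytosolic Acot1 (-0.11), the mitochondrial Acot2 (0.06) and the peroxisomal Acot4 (0.60) did not pass. The ketogenic gene Bdh1, for hydroxybutyrate dehydrogenase, fell by 0.54 ± 0.15 (edgeR adjusted p = 0.00406). Pdk4, which spares glucose by switching off pyruvate dehydrogenase, had 4.41, 5.13, 3.43 and 4.50 CPM in FSTL3 livers, against 17.2, 12.2, 10.4 and 8.33 CPM in batch 2 vehicle livers (-1.55 ± 0.28, edgeR adjusted p = 9.80e-05). Vnn1, the pantetheinase gene, did not pass (-0.23 ± 0.64).

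**Figure D2:**
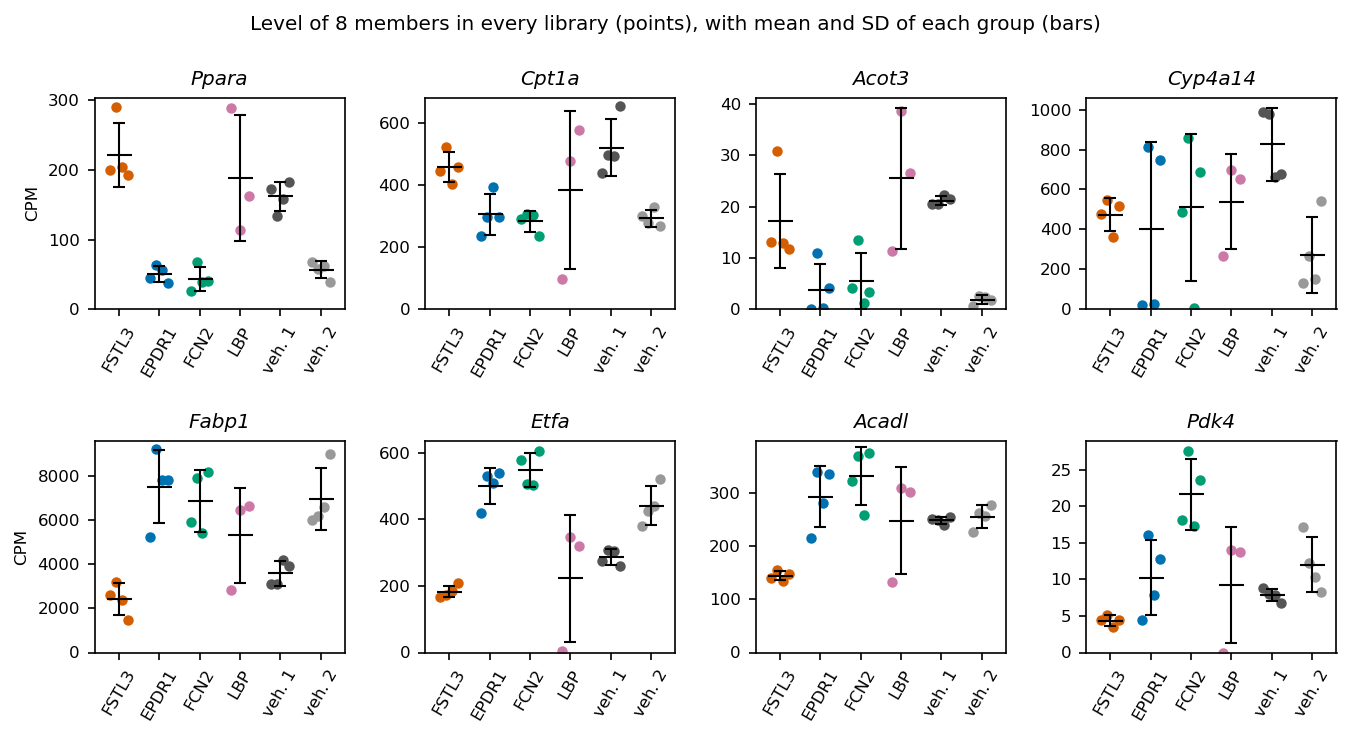
CPM (vertical axes, from 0) of 8 members in every library, with the mean and SD of each of the 6 groups (horizontal axes; veh. 1 and veh. 2 are the vehicles of batches 1 and 2). Ppara and Acot3 are high in FSTL3 and in all of batch 1, Etfa, Acadl and Pdk4 are low in FSTL3, and Cyp4a14 spreads widely within EPDR1 and FCN2.

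The FSTL3 fold changes increased with summed exon length, with Spearman's rho of 0.471 over 11553 genes and 0.368 over the 34 members, genes not being independent replicates. The median was -0.80 over the 10% of genes with the least exon length, which hold Fabp1, Etfb and Acaa2, and 0.82 over the 10% with the most, which hold Acsl1. With each library's trend on exon length removed, 15 members were called, 11 of them in the direction given above. The share of all genes called in that fit is not given here, so this count does not set the members apart from other genes. Ppara (2.04), Acot3 (3.17), Cpt1a (0.64), Cd36 (1.45), Pdk4 (-1.35), Cyp4a12a (-0.99), Etfa (-0.75) and Etfdh (-0.67) passed with the direction given above. So did Hsd17b4 (-0.46) and Bdh1 (-0.40). Acadl shrank from -0.89 to -0.35 and was just inside the threshold (edgeR adjusted p = 0.0495). Fabp1 (-0.45, edgeR adjusted p = 0.139), Etfb (-0.22), Cpt2 (-0.06), Eci1 (-0.11), Acadm (-0.40) and Decr1 (-0.33) no longer passed. Acsl1 (-0.71) and Hadha (-0.71) then passed as lower, Acadvl (0.58) and Acads (0.40) as higher, and Acaa2 took the opposite sign (0.32) without passing.

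**Figure D3:**
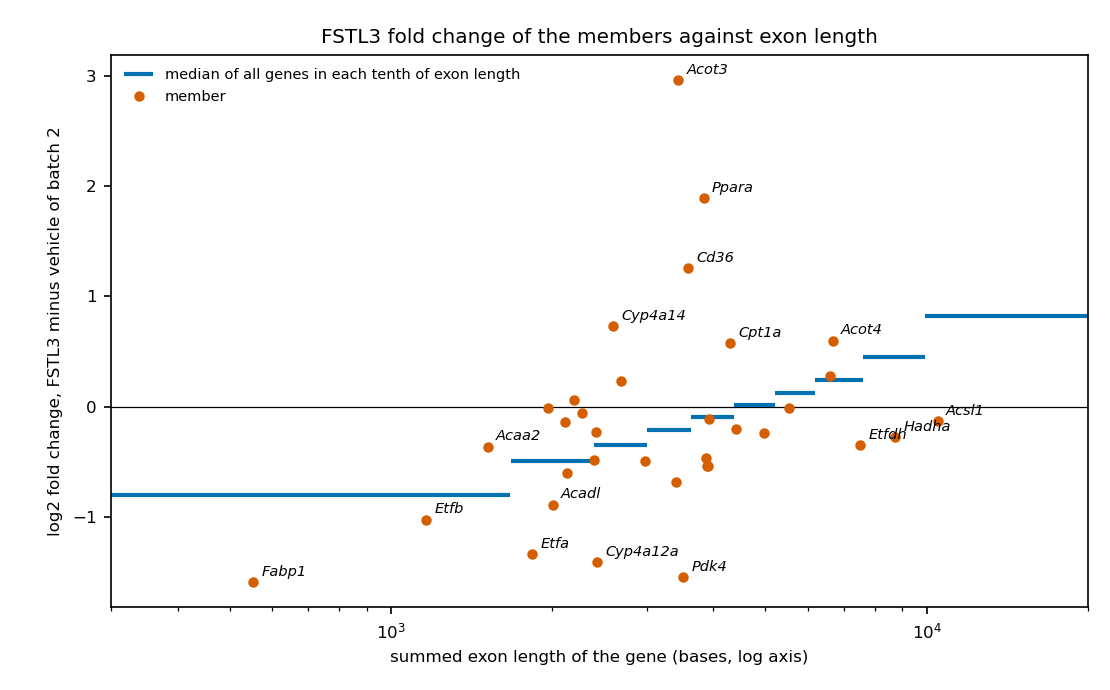
Log2 fold change of FSTL3 minus batch 2 vehicle (vertical axis) against summed exon length in bases (log axis) for the 34 members tested (points), with the median of all genes in each of 10 equal bins of exon length (bars). The bars climb from -0.80 to 0.82, Ppara and Acot3 lie far above them, and Etfa and Pdk4 below.

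FSTL3 livers also differed from the batch 2 vehicle in the clock genes. Bmal1 (Arntl) had 3.44 ± 1.46 CPM in FSTL3 livers, against 25.4 ± 7.10 CPM in batch 2 vehicle livers (SD, n = 4 each). Per3 had 47.1 ± 2.94 CPM in FSTL3 livers, against 4.61 ± 2.14 CPM in batch 2 vehicle livers. The vehicle of batch 1 lay on the FSTL3 side of the batch 2 vehicle in both. It had 2.54 ± 1.68 CPM of Arntl and 27.1 ± 1.295 CPM of Per3. Its Per3 values (25.45 to 28.53 CPM) lay below those of FSTL3 (44.37 to 49.98 CPM) without overlap. Markers of sinusoidal endothelium, summed over 10 genes, were at 539.8 to 662.8 CPM in FSTL3 livers, against 200.5 to 256.7 CPM in batch 2 vehicle livers. Kupffer cell markers, summed over 10 genes, were at 146.7 to 158.3 CPM in FSTL3 livers, against 180.2 to 480.3 CPM in batch 2 vehicle livers. Cholangiocyte markers, over 6 genes, were at 22.9 to 33.6 CPM in FSTL3 livers, against 43.8 to 73.5 CPM in batch 2 vehicle livers, and adipocyte markers, over 6 genes, at 3.00 to 5.79 CPM in FSTL3 livers, against 1.74 to 2.91 CPM in batch 2 vehicle livers. None of these sums overlapped between the groups. Skeletal muscle markers, over 6 genes, did not overlap either, at 0.0904 to 0.695 CPM in FSTL3 livers and 1.05 to 4.98 CPM in batch 2 vehicle livers. Hepatocyte, stellate cell and pancreatic acinar sums overlapped. The part of clock genes and cell markers in the results on FSTL3 was not tested.

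The vehicles of the 2 batches were compared because no treatment separates them. Ppara, Cd36, the peroxisomal thiolase genes Acaa1a and Acaa1b and 3 of the 4 thioesterase genes were higher in the vehicle of batch 1. Fabp1, Etfa and Etfb were lower. Of 34 members, 20 were called, 13 higher and 7 lower, whereas 39.9% of all 9928 genes tested were called, 20.7% higher and 19.2% lower. The members' median log2 difference was 0.22, against 0.02 over all genes. The count of called members was 5 in a joint fit of all 23 libraries and 13 in that fit without LBP replicate 2. The common dispersion was 0.0208 in the fit of the vehicles, 0.0774 in the first joint fit and 0.0298 in the second. The batch, and the clock difference that goes with it, cannot be told apart here from any other difference between the 2 sets of vehicle mice. Sinusoidal endothelial markers summed to 308.2 to 430.3 CPM in batch 1 vehicle livers, against 200.5 to 256.7 CPM in batch 2 vehicle livers, and adipocyte markers to 7.37 to 28.6 CPM in batch 1 vehicle livers, against 1.74 to 2.91 CPM in batch 2 vehicle livers. Cholangiocyte markers summed to 26.5 to 39.95 CPM in batch 1 vehicle livers, against 43.8 to 73.5 CPM in batch 2 vehicle livers. None of these 3 sums overlapped, and their part in the vehicle results, Cd36 included, was not tested. This comparison and that of FSTL3 share the batch 2 vehicle.

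Acot3 differed most. It had 20.5, 20.5, 22.2 and 21.6 CPM in batch 1 vehicle livers, against 0.747, 2.59, 2.49 and 1.74 CPM in batch 2 vehicle livers (3.31 ± 0.23, edgeR adjusted p = 7.43e-08). Ppara had 172.8, 133.5, 158.6 and 182.2 CPM in batch 1 vehicle livers, against 68.2, 58.4, 61.9 and 39.2 CPM in batch 2 vehicle livers (1.51 ± 0.14, edgeR adjusted p = 1.41e-06). Neither gene overlapped between the vehicles. Acot4 (1.17), the peroxisomal thiolase Acaa1b (0.98), Vnn1 (0.86), Cpt1a (0.83) and Acads (0.73) rose as well, with edgeR adjusted p at or below 0.000325. Acaa1a (0.54) and Eci2 (0.40) rose by less.

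Cyp4a14, an omega-hydroxylase gene known for its strong induction by PPAR-alpha agonists, had 989.6, 978.1, 662.9 and 676.0 CPM in batch 1 vehicle livers, against 129.5, 266.8, 149.5 and 542.7 CPM in batch 2 vehicle livers. The groups did not overlap, but replicate 4 of the batch 2 vehicle was close to the batch 1 range. Its call was near the threshold (1.596 ± 0.511, edgeR adjusted p = 0.0487). It was lost without any 1 of batch 2 vehicle replicates 1 to 3 or batch 1 vehicle replicates 1 to 4 (1.34 to 1.69). Cd36 (1.11), Acadvl (0.42) and Acot1 (0.52) each lost the call when any of 5 or 6 libraries was left out. Cd36 was then 0.87 to 1.22, Acadvl 0.27 to 0.43 and Acot1 0.38 to 0.51. Cyp4a10 was not called (0.36 ± 0.35) but was without batch 2 vehicle replicate 4 (0.79, edgeR adjusted p = 7.56e-05).

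Fabp1 had 3111, 3102, 4191 and 3945 CPM in batch 1 vehicle livers, against 6000, 6203, 6612 and 9028 CPM in batch 2 vehicle livers (-0.96 ± 0.15, edgeR adjusted p = 8.70e-05). Etfb (-0.73), Etfa (-0.62), Cyp4a12a (-0.60) and Decr1 (-0.43) were lower too. Pdk4 (-0.65) lost its call without batch 2 vehicle replicate 1 or batch 1 vehicle replicate 3 or 4 (-0.66 to -0.49). Hadhb, the thiolase subunit of the trifunctional protein, had 18.03, 19.4, 17.01 and 19.2 CPM in batch 1 vehicle livers, against 25.9, 31.5, 36.5 and 35.4 CPM in batch 2 vehicle livers (-0.82 ± 0.15). Hadha, its partner subunit encoded beside it, was not called (0.27 ± 0.11).

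FSTL3 minus the batch 1 vehicle gave 17 called members, 1 higher and 16 lower, whereas 49.9% of 12244 genes were called, 26.5% higher and 23.4% lower. The treatment and the batch cannot be told apart in this comparison. Between FSTL3 and the batch 1 vehicle, the summed endothelial markers (539.8 to 662.8 against 308.2 to 430.3 CPM) and Kupffer cell markers (146.7 to 158.3 against 301.3 to 420.2 CPM) did not overlap either. Nor did stellate cell markers (356.1 to 452.0 against 213.4 to 284.8 CPM) or adipocyte markers (3.00 to 5.79 against 7.37 to 28.6 CPM). Pancreatic acinar markers were also apart (0.0869 to 0.3335 against 0.650 to 69.7 CPM). Hepatocyte, cholangiocyte and skeletal muscle sums overlapped. The part of these sums in this comparison was not tested. Ppara (0.44 ± 0.22, edgeR adjusted p = 0.101), Cpt1a (-0.19) and Acot3 (-0.32) were not called, and the last pair had the opposite sign to that against the batch 2 vehicle. Of 11 mitochondrial beta-oxidation genes, 8 fell and 1 rose, with Acadl at -0.78 ± 0.13 and Acads at -0.72 ± 0.15. Hadhb was the member that rose (1.16 ± 0.15, edgeR adjusted p = 4.30e-07). Fabp1 (-0.57), Cpt2 (-0.57), Etfa (-0.65), Hsd17b4 (-0.50), Bdh1 (-0.68), Cyp4a12a (-0.76) and Pdk4 (-0.84) fell against this vehicle as well. Of the 18 members called against the batch 2 vehicle, 11 were called in the same direction against that of batch 1. The share of all genes called in the same direction in both is not given here. Both comparisons use the same FSTL3 libraries, so they are not independent.

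**Figure D4:**
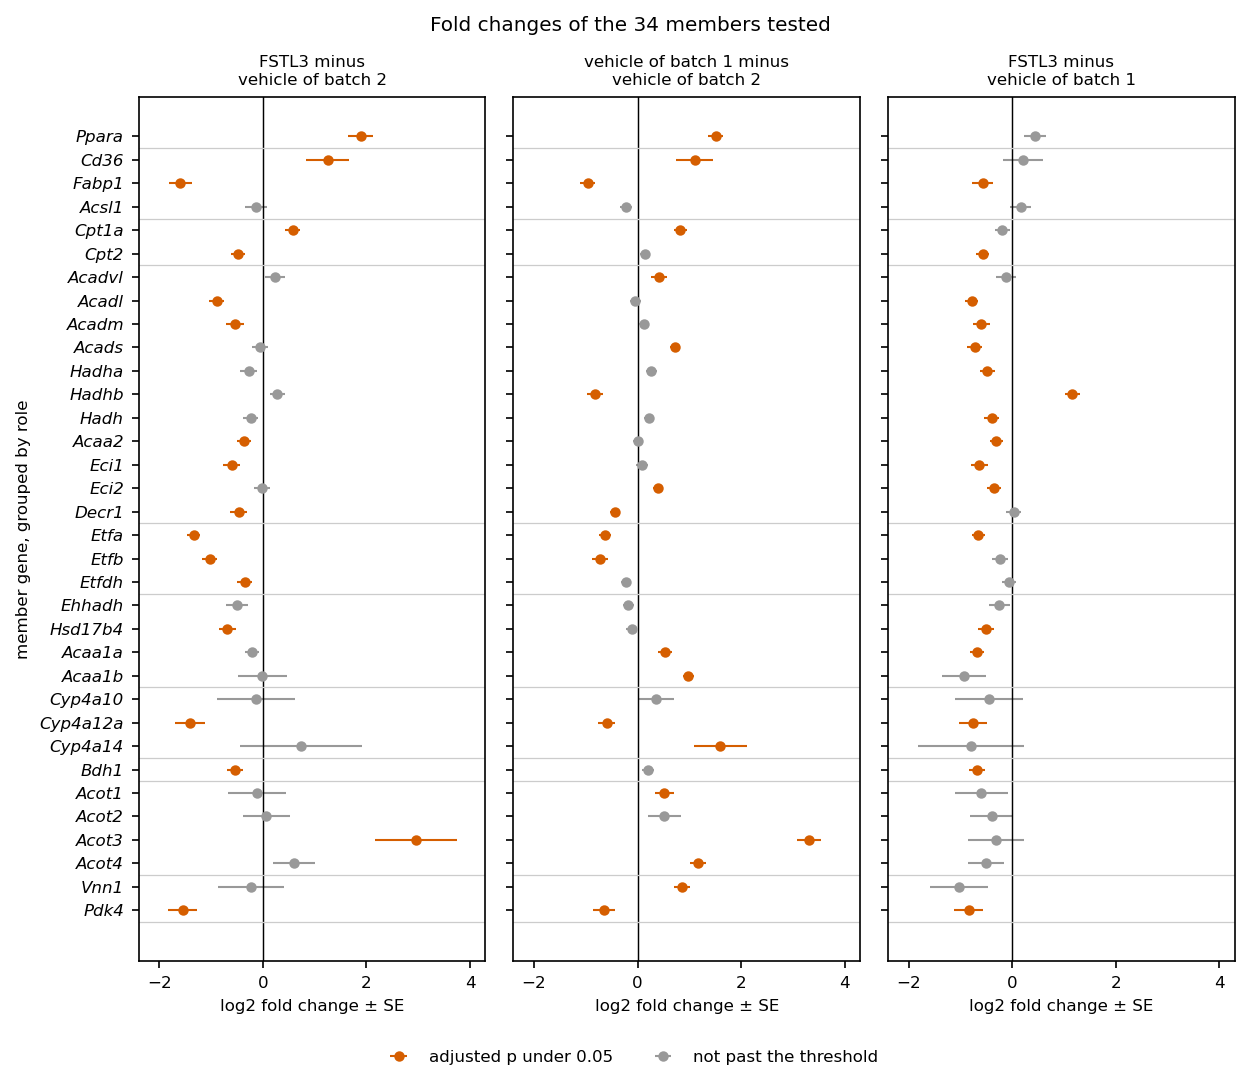
Log2 fold change ± SE (horizontal axes) of the 34 members tested (rows, grouped by role) for FSTL3 minus the batch 2 vehicle, the batch 1 vehicle minus the batch 2 vehicle, and FSTL3 minus the batch 1 vehicle. Orange points have an edgeR adjusted p under 0.05, and Ppara and Acot3 are orange in the first 2 panels and grey in the last, while Acadl is orange in the first and last.

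EPDR1 livers gave no called member. In edgeR's test 0 of 34 members passed, where 0% of 11553 genes did. An unadjusted p under 0.05 was found for 1 member, Etfb, and for 1169 of the 11553 genes. DESeq2 called 12 genes and 0 members. The members' log2 differences ran from -0.36 for Acadvl to 0.77 for Acot3. Several genes known as inducible PPAR-alpha targets were split within the group. Cyp4a14 had 19.4, 810.3, 24.2 and 749.2 CPM in EPDR1 livers, against 129.5, 266.8, 149.5 and 542.7 CPM in batch 2 vehicle livers, so that 2 libraries lay below the vehicle range and 2 above it. Acot3 had 0, 34, 1 and 12 counts in EPDR1 libraries 1 to 4, against 3, 57, 6 and 5 counts in batch 2 vehicle libraries 1 to 4. These libraries differed in depth, and in CPM Acot3 ran from 0 to 10.9 in EPDR1 livers, against 0.747 to 2.59 in batch 2 vehicle livers. Cyp4a10 had 80.2, 543.9, 99.6 and 295.2 CPM in EPDR1 livers, against 215.7, 267.3, 184.3 and 542.4 CPM in batch 2 vehicle livers. The standard error of the log2 difference was accordingly 1.18 for Cyp4a14, against 0.13 for the thiolase Acaa2.

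FCN2 livers gave 3 called members, 1 higher and 2 lower, whereas 18.2% of 11553 genes were called, 7.45% higher and 10.8% lower. Acaa1a, the peroxisomal thiolase gene, had 55.7, 57.2, 60.1 and 52.0 CPM in FCN2 livers, against 71.5, 98.1, 105.0 and 100.3 CPM in batch 2 vehicle livers (-0.76 ± 0.14, edgeR adjusted p = 0.00218). Acads, for the short-chain dehydrogenase, had 58.5, 58.4, 56.5 and 46.6 CPM in FCN2 livers, against 93.9, 98.5, 93.4 and 83.3 CPM in batch 2 vehicle livers (-0.78 ± 0.16, edgeR adjusted p = 0.00409). Neither overlapped with the vehicle. Hadhb rose (0.46 ± 0.15, edgeR adjusted p = 0.0360), a call lost without FCN2 replicate 2, 3 or 4 or batch 2 vehicle replicate 1 or 2 (0.37 to 0.48). Pdk4 was just outside the threshold (0.77 ± 0.27, edgeR adjusted p = 0.0518) and passed without FCN2 replicate 3 (0.87) or batch 2 vehicle replicate 1 (0.96). Ppara passed as lower without FCN2 replicate 2 (-0.72), Acadl as higher without FCN2 replicate 3 (0.46) and Etfa as higher without batch 2 vehicle replicate 4 (0.39). Cyp4a14 again spread widely, with 487.3, 859.6, 7.78 and 689.0 CPM in FCN2 livers.

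The proteins of batch 2 were also set against each other. FSTL3 minus EPDR1 gave 17 called members, 5 higher and 12 lower, where 58.8% of genes were called, 29.7% higher and 29.1% lower. FSTL3 minus FCN2 gave 16, 5 higher and 11 lower, where 61.3% of genes were called, 32.5% higher and 28.9% lower. Ppara was higher in FSTL3 livers in both (2.08 ± 0.24 against EPDR1 and 2.35 ± 0.24 against FCN2), and the 3 electron transfer genes were lower in both. Against EPDR1, Cd36 lost its call without EPDR1 replicate 1, 3 or 4 or any FSTL3 library (0.87 to 1.1), and Acot3 without EPDR1 replicate 1, 3 or 4 or FSTL3 replicate 2 (1.73 to 2.28). Acadm (-0.47 to -0.25) and Etfdh (-0.37 to -0.23) lost theirs without EPDR1 replicate 2, 3 or 4 or FSTL3 replicate 1, 3 or 4. Bdh1 lost its call without EPDR1 replicate 1, 2 or 3 or FSTL3 replicate 3 or 4 (-0.38 to -0.25). Against FCN2, that of Acadvl was lost without FCN2 replicate 3 (0.49). Cd36 and Acot3 were not called against FCN2, and both overlapped between the groups. Acot3 passed against FCN2 without FCN2 replicate 2 (2.43). These comparisons share the FSTL3 libraries. FSTL3 livers also differed from both other groups in clock genes and endothelial markers. Arntl had 3.44 ± 1.46 CPM in FSTL3, 23.3 ± 5.01 CPM in EPDR1 and 31.4 ± 2.99 CPM in FCN2 livers (SD). Endothelial sums were 539.8 to 662.8 CPM in FSTL3, 219.1 to 321.7 CPM in EPDR1 and 256.1 to 270.6 CPM in FCN2 livers. The part of these, and of exon length, in the comparisons between proteins was not tested here. EPDR1 minus FCN2 gave 2 called members, where 3.65% of genes were called, 1.88% higher and 1.77% lower. Acaa1a was higher in EPDR1 livers (0.77 ± 0.14, edgeR adjusted p = 0.0164) and Pdk4 lower (-1.07 ± 0.29, edgeR adjusted p = 0.0448). The call of Acaa1a was lost without EPDR1 replicate 1 (0.75) or FCN2 replicate 4 (0.72), and that of Pdk4 without EPDR1 replicate 1 or 3 or FCN2 replicate 2 or 4 (-1.03 to -0.80).

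LBP livers gave 0 called members in edgeR's test, where 0% of 10017 genes were called. An unadjusted p under 0.05 was found for 4 members and for 871 of the 10017 genes. DESeq2 called 17 genes and 0 members. Without LBP replicate 2, 1 member was called, where 0.115% of 10399 genes were, 0.0385% higher and 0.0769% lower. It was Fabp1, with 6481 and 6644 CPM in LBP replicates 3 and 4 and 2830 CPM in LBP replicate 2, against 3111, 3102, 4191 and 3945 CPM in batch 1 vehicle livers. Its log2 difference was 0.88 ± 0.14 without that library (edgeR adjusted p = 0.0295) and 0.60 ± 0.41 with it (edgeR adjusted p = 0.650). The largest difference with all 3 libraries, Etfb at 4.56 ± 1.42, was 0.18 ± 0.18 without LBP replicate 2. Acot3 had 11.3, 38.7 and 26.6 CPM in LBP livers, against 20.5, 20.5, 22.2 and 21.6 CPM in batch 1 vehicle livers, and was not called with or without it.

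Within 3 of the groups the same library was the highest, and the same library the lowest, for most members. In FSTL3, replicate 2 was the highest library for 30 of 34 members, as it was for 26.1% of all 11553 genes, and replicate 4 the lowest for 26 of 34, as for 26.7% of all genes. In EPDR1, replicate 2 was the highest for 29 of 34 members, as for 23.4% of all genes, and replicate 1 the lowest for 29 of 34, as for 26.1%. In FCN2, replicate 2 was the highest for 25 of 34, as for 26.9%, and replicate 3 the lowest for 26 of 34, as for 26.5%. In the vehicle of batch 1 no library was highest or lowest for more than 13 of 34 members, and in that of batch 2 for more than 17. In LBP, replicate 2 was the lowest for 22 of 34 members, as for 54.9% of all 10017 genes. No LBP library was the highest for more than 13, the count of replicate 3, which was the highest for 29.6% of all genes. These counts describe the libraries and carry no test, since genes are not independent replicates. In EPDR1 the replicate 2 library had 3334618 counts and 6.99% albumin, and the replicate 1 library 4180013 counts and 5.26% albumin; their part in the order was not tested.

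**Figure D5:**
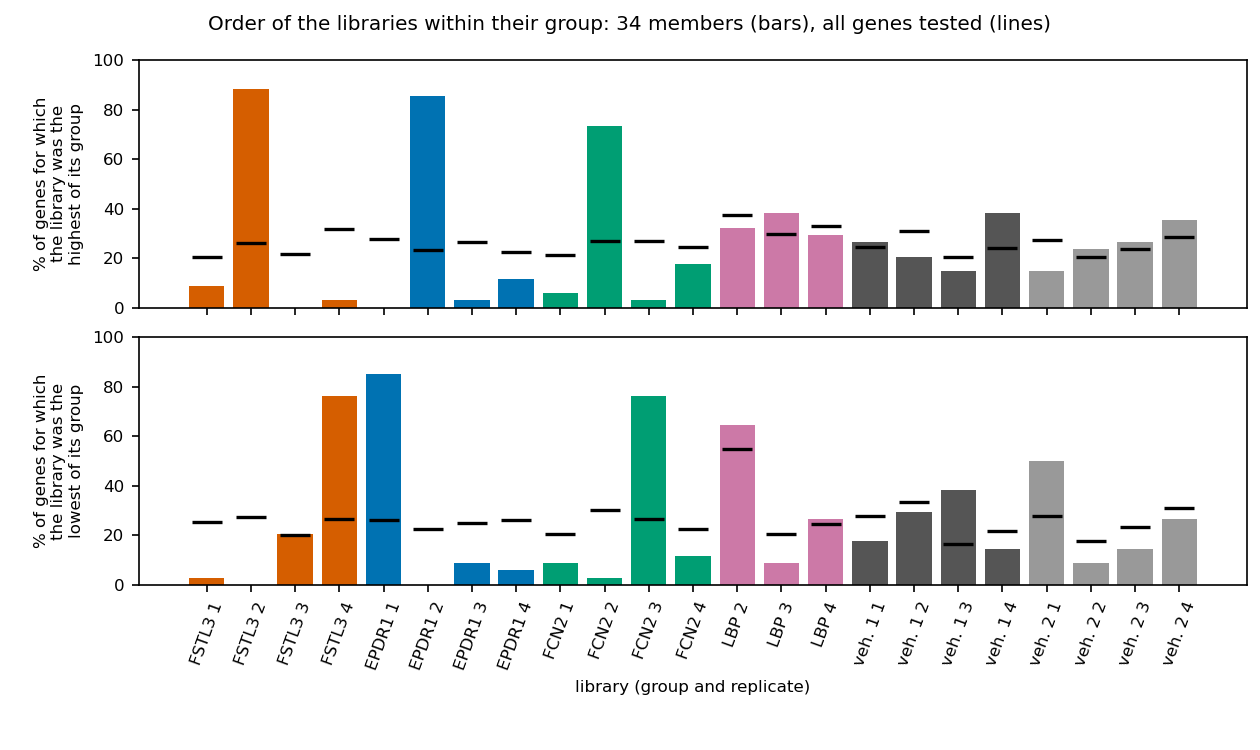
Share of the 34 members tested (bars) and of all genes tested (black lines) for which each library (horizontal axis) was the highest (upper panel, %) or the lowest (lower panel, %) of its group. The bars of FSTL3 replicate 2, EPDR1 replicate 2 and FCN2 replicate 2 stand far above their lines in the upper panel.

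A wider list of 78 genes of the pathway, none of them a member, was read in the same fits, and 75 were tested. After FSTL3, 34 were called against the batch 2 vehicle, 20 higher and 14 lower, which is 45.3% of the list where 56.9% of all genes were called. The 4 with the smallest p were the acyl-CoA binding protein gene Dbi (-2.12 ± 0.16), the FGF21 co-receptor gene Klb (1.58 ± 0.17), the thioesterase gene Acot13 (-1.47 ± 0.18) and the phytanoyl-CoA hydroxylase gene Phyh (-0.99 ± 0.13). Between the vehicles 53 were called, 40 higher and 13 lower in batch 1, which is 70.7% of the list where 39.9% of all genes were called. They were led by the triglyceride lipase gene Pnpla2 (1.53 ± 0.14), the carnitine transporter gene Slc22a5 (1.38 ± 0.15), the lipoprotein lipase gene Lpl (-1.79 ± 0.19) and Klb (1.07 ± 0.13). After FCN2, 18 were called, 4 higher and 14 lower, which is 24% of the list where 18.2% of all genes were called. The count was 11 without FCN2 replicate 4 and 10 without batch 2 vehicle replicate 2. They were led by Pex16 (-0.85 ± 0.15), a peroxisome assembly gene, Acot8 (-1.78 ± 0.35), a peroxisomal thioesterase gene, Creb3l3 (-0.78 ± 0.15), a hepatic partner of PPAR-alpha, and Rxra (-0.69 ± 0.14), its dimer partner. EPDR1 and LBP gave 0 called genes of this list in edgeR's test, and DESeq2 called 1 after LBP. An unadjusted edgeR p under 0.05 was found for 8 genes of the list after EPDR1, beside 1169 of all 11553 genes. After LBP it was found for 2, beside 871 of all 10017 genes.

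Some members share sequence or exons with other genes, which limits their counts because reads matching more than 1 place or gene were left out. Of the distinct 50-base stretches of Cyp4a12a transcripts, 48.9% also occur in Cyp4a12b. The corresponding share was 30.5% for Acaa1b with Acaa1a, 24.5% for Acot2 with Acot1, 24.5% for Cyp4a10 with Cyp4a32 and 18.1% for Hadhb with Gm13910. Acot3 shared 21.3% of its stretches with other genes. Of its exon bases, 20.6% overlap 4732463B04Rik on the opposite strand or Gm49366 on the same strand. For Etfb, 58.2% of exon bases overlap Gm45233 or Mir7051 on the same strand, and for Acadvl 42.9% overlap Dvl2 on the opposite strand, which the counting did not separate. Levels of these genes are uncertain for that reason. Ppara, Cd36, Fabp1, Cpt2, Acadl and Vnn1 shared no such stretch with another gene.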

How the data were processed

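Per the labels, total RNA of mouse liver was sequenced in 23 libraries. The authors deposited raw read counts per gene, made with featureCounts 1.6.3 on Ensembl 95 annotation per the file headers, after alignment with STAR 2.6.0c to GRCm38 per the submitters' processing notes. The recorded command sets no strand or multiple-mapping option. The 35 members, the gene lists and the fits were chosen with earlier results of these data known. Genes were filtered with filterByExpr, scaled by the trimmed mean of M values and tested by the robust quasi-likelihood method of edgeR 4.0.16 under R 4.3.3, with Benjamini-Hochberg adjustment over all genes tested and a threshold of 0.05. The 16 libraries of batch 2 were fitted together, the 7 of batch 1 together, the 8 vehicles together, and FSTL3 with the batch 1 vehicle in a fit of the 22 libraries without LBP replicate 2. DESeq2 1.42.0, limma 3.58.1, other filters and left-out libraries were alternatives. LBP replicate 1 was not analysed here. No replicate libraries agreed within sampling noise: over 33 pairs, the lowest chi-square per degree of freedom was 2.47. Genes named were the members and, of the wider list, the 4 called genes with the smallest p and a mean of at least 1 CPM. Scripts were tested on simulated data.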

Additional observations from a re-analysis of the deposited data

Results flagged for a closer look

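Within groups of 4 libraries, 1 library stood apart from the other 3 in 12 of 174 combinations of member and group, where chance alone flags about 1 in 20. FSTL3 replicate 2 was the high library for Ppara (290.3 CPM), Acot3 (30.9 CPM, others at most 13.1) and Acot4 (96.8 CPM). EPDR1 replicate 2 was the high library for Cd36 (86.2 CPM) and Hadh (331.5 CPM), and EPDR1 replicate 4 for Fgf21 (1.03 CPM, from 3 counts). FCN2 replicate 4 was the low library for Acads (46.6 CPM). In the batch 1 vehicle, replicate 4 was high for Acsl1 (1455 CPM) and replicate 2 low for Eci1 (101.6 CPM). In the batch 2 vehicle, replicate 2 was high for Fgf21 (0.182 CPM, from 4 counts) and Eci2 (180.1 CPM), and replicate 4 low for Hsd17b4 (493.5 CPM).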

How the results depend on the processing

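EPDR1 gave 0 called members under every alternative run. Fitting all 23 libraries together, LBP replicate 2 included, called 0 members after FCN2, 6 after FSTL3, 3 after LBP, 5 between the vehicles, 7 for FSTL3 minus EPDR1, 8 for FSTL3 minus FCN2 and 0 for EPDR1 minus FCN2. Leaving that library out of the joint fit gave 5 for FCN2 and 13 between the vehicles. For FCN2 the count was 6 with the exon length offset, 6 with DESeq2, 5 with no filter and 6 with the replicate block and the offset. EPDR1 minus FCN2 gave 0 when those groups were fitted alone and 4 with DESeq2. Leaving out 1 library at a time gave 14 to 18 members for FSTL3, 16 to 21 between the vehicles, 12 to 17 for FSTL3 minus EPDR1, 0 to 2 for EPDR1 minus FCN2 and 0 to 1 for LBP. For most of these alternatives the share of all genes called is not given here, so their counts do not set the members apart from other genes. The direction turned in 12 instances. With the offset Acads (0.40) and Acaa2 (0.32) turned for FSTL3 minus the batch 2 vehicle, and Acaa2 for FSTL3 minus EPDR1 (0.38) and minus FCN2 (0.45). With the replicate block and the offset these were 0.40, 0.31, 0.39 and 0.44, and Acsl1 turned for FSTL3 minus EPDR1 (-0.54). With the batch 1 vehicle as the control Cpt1a (-0.19), Decr1 (0.028) and Acot3 (-0.32) turned. The cause was not tested.

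The labels do not say that replicate numbers pair the libraries, and not every same-numbered pair correlated over 0.1. In batch 2, 9 of 24 same-numbered pairs did (-0.13 to 0.31, median 0.05), against 11 of 72 differently numbered pairs (median -0.02). Of 16 libraries, 3 correlated best with their own number in every other group, and 24 of 48 combinations of a library and another group did, which is a hint from the data and not the design. With the replicate block the members called were 0 for EPDR1, 4 for FCN2, 19 for FSTL3, 0 for LBP, 18 between the vehicles, 20 for FSTL3 minus EPDR1, 18 for FSTL3 minus FCN2 and 3 for EPDR1 minus FCN2. Fgf21 (100 counts over all libraries), Acot2 (825), Pdk4 (1281) and Acot3 (1562) had the fewest counts, which limits what their levels show.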
